A study of Homo sapiens with 6 samples.

Results

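The 9 genes described here encode the machinery that presents peptides on MHC class I molecules, and were taken by gene name from a table of RNA-seq read counts. They are the heavy chain genes HLA-B, HLA-C, HLA-E and HLA-F, the light chain gene B2M, the peptide transporter genes TAP1 and TAP2, the peptide loading gene TAPBP and the transactivator gene NLRC5. All 9 had a row among the 57341 named genes of the table, and all 9 were among the 16710 genes that passed the filter on low counts and were tested. The counts came from H295R, an established human adrenocortical carcinoma cell line that makes steroid hormones. 3 libraries were labelled as parental H295R cells, and 3 as H295R-PM-Ptc+, the cells of that line that carried the Hedgehog receptor Ptch1 at the plasma membrane and that had been sorted and then amplified in culture. Neither population received a treatment, and both were grown in the same serum-supplemented medium. The sorted population was drawn from this single line, and nothing in the labels says that the replicates of a group were separate cultures.

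MHC class I molecules display fragments of a cell's own proteins at its surface, where CD8 T cells and natural killer cells read them. Proteasomes cut the proteins, the TAP transporter carries the peptides into the endoplasmic reticulum, and a loading complex fits them to a heavy chain paired with beta-2-microglobulin. Many class I genes share promoter elements that respond to NF-kappaB, to interferon-regulated factors and to a complex that NLRC5 joins, and many tumors show low levels of these genes.

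Library totals lay between 23264403 and 25813247 counts. PTCH1, the gene of the protein by which the cells were sorted, had 441, 559 and 579 counts under the H295R label and 248, 326 and 319 under the H295R-PM-Ptc+ label. Its level was 21.3 ± 2.56 CPM (counts scaled to a common library total; mean ± SD, n = 3) against 12.2 ± 2.19, a log2 difference of -0.81 (SE 0.147, edgeR adjusted p = 0.0207), which goes against the labels. Without replicate 2 or 3 labelled H295R, or replicate 2 labelled H295R-PM-Ptc+, its adjusted p was 0.0799, 0.0921 and 0.0618. The study's own normalized values of these libraries carry the group names the other way round, so the names may be exchanged in the deposited counts. Every direction below is therefore a direction between libraries as labelled, and would turn if the names were exchanged. Of the 10 adrenocortical markers, 9 were tested, and their summed level was 969 to 1245 CPM under the H295R label and 1043 to 1325 CPM under the H295R-PM-Ptc+ label. Of these CYP21A2 was called higher, and the blocked fit called CYP21A2 and STAR (0.41, edgeR adjusted p = 3.9e-06) higher and CYP11A1 (-0.24, adjusted p = 0.00100) lower. The leukocyte gene PTPRC had no count in any library, which allows up to 3 counts in each. The 14 leukocyte markers summed to 2.28 to 2.64 CPM under the H295R label and 3.585 to 9.47 CPM under the H295R-PM-Ptc+ label. CD79A, a B cell receptor chain called higher there (edgeR adjusted p = 0.0409), gave 6.61 CPM of the highest sum, and the part of these markers in the class I values was not tested. The 6 endothelial markers summed to between 0.551 and 1.04 CPM, and the 6 fibroblast markers to between 8.74 and 13.05 CPM, with THY1 called higher under the H295R-PM-Ptc+ label (log2 fold change 1.29, edgeR adjusted p = 0.0175). In such bulk libraries, fewer cells that express a gene and less RNA per cell cannot be told apart.

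Promoter sequences were found in the RefSeq table (GRCh38.p14) for 7 of the 9 genes, HLA-E and NLRC5 having no entry. Shown here are 120 bases upstream of the starts of HLA-B, HLA-C and B2M, the chains that form the classical class I molecule, with the motif matches in capitals. The HLA-B stretch is chr6:31357249-31357368 on the minus strand (189 to 70 bases upstream), the HLA-C stretch chr6:31272168-31272287 on the minus strand (195 to 76 bases upstream), and the B2M stretch chr15:44711353-44711472 on the plus strand (164 to 45 bases upstream).
HLA-B: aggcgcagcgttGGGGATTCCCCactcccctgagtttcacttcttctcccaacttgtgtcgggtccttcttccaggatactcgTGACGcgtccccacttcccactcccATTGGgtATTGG
HLA-C: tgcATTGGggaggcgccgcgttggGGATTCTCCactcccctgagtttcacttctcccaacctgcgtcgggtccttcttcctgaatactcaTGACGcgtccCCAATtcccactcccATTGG
B2M: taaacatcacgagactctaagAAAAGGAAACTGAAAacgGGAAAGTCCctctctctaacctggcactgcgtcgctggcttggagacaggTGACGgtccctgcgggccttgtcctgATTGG

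The capitals mark matches on either strand, in the first 250 bases upstream of the start, to the kappaB letters GGANTNNCC, the interferon-stimulated response element core TTTCNNTTT, the cyclic AMP response element core TGACG of the X box, and the CCAAT letters of the Y box. The HLA-B, HLA-C and B2M promoters each held a kappaB match, TGACG and CCAAT. Of all 35116 promoters in the table, 12.0% held the kappaB letters, 21.2% TGACG and 32.0% CCAAT. In HLA-B the kappaB run is made of a match on each strand that overlap. The response element core, held by 9.2% of all promoters, occurred in B2M as a pair of overlapping matches that begin 143 and 137 bases upstream. The exact core letters had no match in HLA-B or HLA-C. Both of those stretches hold tttcacttc, which differs from the core letters in its last base alone. The missing match therefore does not show that the element is absent there. The core letters also occurred at 134 and 128 bases upstream of TAP1, at 57 bases upstream of TAP2, at 19 and 13 bases upstream of TAPBP, and at 156 bases upstream of HLA-F. The STAT-binding GAS letters TTCNNNGAA, held by 6.57% of all promoters, were found among the 7 genes at TAP1 alone, 189 bases upstream of the more downstream of its annotated starts. The upstream stretches of HLA-B and HLA-C had the same base in 226 of 254 aligned columns (89.0%). These matches describe the letters of the reference genome and were not set against any measure of binding.

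The comparison of the labelled groups asked whether the class I genes differed between the sorted and the parental populations. None of the 9 genes passed the test across all genes (edgeR, adjusted p under 0.05), and none had an unadjusted p under 0.05. The share of all tested genes that passed was 3.73%, with 2.42% called higher and 1.32% called lower under the H295R-PM-Ptc+ label, and 17.3% had an unadjusted p under 0.05. DESeq2, which called 5.45% of all tested genes, and limma-voom also called 0 of the 9. A fit with the replicate number as a block, described below, called 2 of the 9 higher and 1 lower. That fit called 12.1% of all tested genes higher and 10.4% lower. The CPM ranges of the groups overlapped for all 9 genes, whereas they did not overlap for 23.5% of all tested genes. The log2 fold changes ran from -0.21 for TAP1 to 0.26 for NLRC5, and 7 of the 9 were positive. Their median was 0.15, and the median over all tested genes was 0.00094 with 50.2% positive. The median size of the change, without its sign, was 0.15 for the 9 genes and 0.13 for all tested genes.

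**Figure D1:**
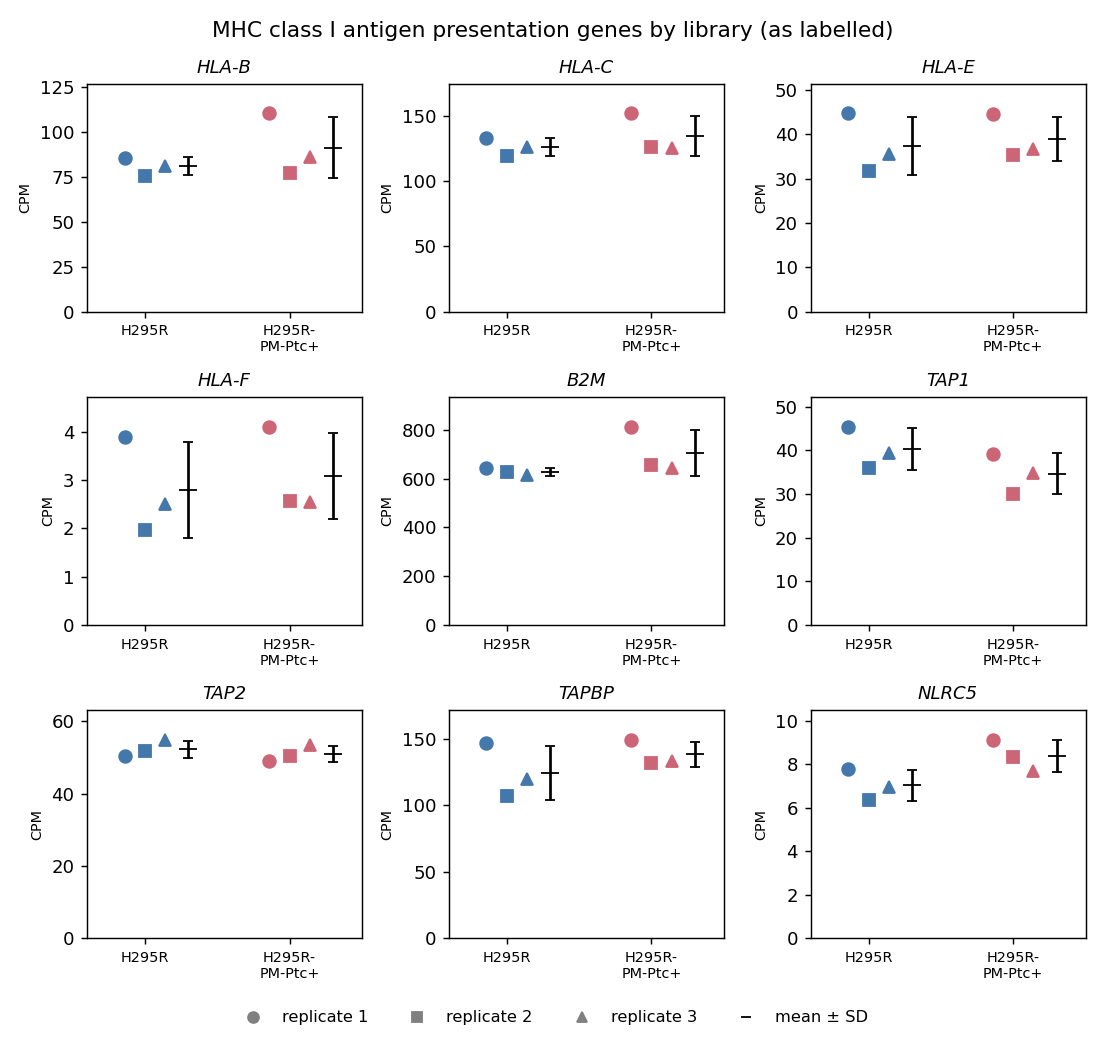
Level of each class I gene in CPM (vertical axes, from 0) in the 3 libraries of each labelled group, with symbols for the replicate number and black bars for the mean ± SD of 3 libraries. The ranges of the groups overlap in every panel, and the circle of replicate 1 is the highest of its group for every gene but TAP2.

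HLA-B, a classical heavy chain at chr6:31353872-31357188 on the minus strand, had 85.8, 75.7 and 81.0 CPM under the H295R label and 110.4, 77.4 and 86.2 CPM under the H295R-PM-Ptc+ label. The first library labelled H295R-PM-Ptc+ stood above the rest, and the other two lay within or next to the H295R range. The means were 80.8 ± 5.01 and 91.4 ± 17.1 CPM, a log2 fold change of 0.18 (SE 0.127, 95% interval -0.11 to 0.46, edgeR adjusted p = 0.539).

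HLA-C, the other classical heavy chain in the set, had 133.0, 119.6 and 126.5 CPM under the H295R label and 152.0, 126.1 and 125.2 CPM under the H295R-PM-Ptc+ label. The first library labelled H295R-PM-Ptc+ lay above the H295R range, and the other two within it. Between the labels HLA-C differed by a log2 fold change of 0.09 (SE 0.0949, interval -0.13 to 0.30, edgeR adjusted p = 0.714). The row of HLA-C spans chr6:31268749-31357158 on the minus strand, since the annotation gives this name exons inside HLA-B as well. The exons of HLA-B and HLA-C shared 343 bases, which are 11.4% of the HLA-B exons and 12.0% of the HLA-C exons. Class I heavy chain genes are also near-identical over much of their length and reads that mapped to several places were counted at their primary position, so the split of reads among HLA-B, HLA-C and the other copies is uncertain.

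The count ratio of HLA-B to HLA-C, which does not depend on the scaling between libraries, was 0.645, 0.633 and 0.640 under the H295R label and 0.727, 0.614 and 0.688 under the H295R-PM-Ptc+ label. The 3 H295R ratios lay inside the wider range of the other group. The log2 ratio differed by 0.08 (exact permutation test, two-sided, p = 0.4, the smallest p that 3 against 3 libraries allow being 0.1).

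HLA-E, a non-classical heavy chain that natural killer cell receptors recognize, lies at chr6:30489406-30494205 on the plus strand. It had 44.7, 31.8 and 35.5 CPM under the H295R label and 44.6, 35.3 and 36.8 CPM under the H295R-PM-Ptc+ label. Replicate 1 was the high library of both groups, at nearly the same level, and the groups overlapped. HLA-E differed between the labels by 0.06 on the log2 scale (SE 0.137, interval -0.25 to 0.37, edgeR adjusted p = 0.888).

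HLA-F, another non-classical heavy chain, at chr6:29722775-29738528 on the plus strand, had the fewest counts of the set, 93, 50 and 62 under the H295R label and 105, 64 and 59 under the H295R-PM-Ptc+ label. In CPM these were 3.89, 1.97 and 2.51 against 4.11, 2.57 and 2.55, with replicate 1 far above the other libraries in both groups. The log2 fold change of 0.15 had the widest interval of the 9 genes, -0.49 to 0.79 (SE 0.285, edgeR adjusted p = 0.857). The antisense gene HLA-F-AS1, with 203 to 256 counts, overlaps 535 of the 4342 exon bases of HLA-F (12.3%) on the opposite strand. How reads there were assigned was not tested.

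B2M, the light chain that pairs with class I heavy chains, lies outside the MHC at chr15:44711477-44718877 on the plus strand. It had 644.9, 626.0 and 614.0 CPM under the H295R label, and 813.5, 656.5 and 644.3 CPM under the H295R-PM-Ptc+ label. The first library labelled H295R-PM-Ptc+ was again the highest, while replicate 3 of that label lay just below the highest H295R library. For B2M this gave a log2 fold change of 0.17 (SE 0.101, interval -0.06 to 0.40, edgeR adjusted p = 0.462). The ratio of B2M counts to the summed counts of HLA-B, HLA-C, HLA-E and HLA-F was 2.55 ± 0.165 under the H295R label and 2.635 ± 0.0768 under the H295R-PM-Ptc+ label (n = 3 each). This light to heavy chain ratio differed by 0.05 on the log2 scale (exact permutation test, two-sided, p = 0.5, smallest possible 0.1).

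TAP1 and TAP2 encode the chains of the peptide transporter and lie in the MHC class II region, with PSMB8 between them. TAP1, at chr6:32845209-32853978 on the minus strand, had 45.5, 35.9 and 39.4 CPM under the H295R label and 39.3, 30.0 and 34.8 CPM under the H295R-PM-Ptc+ label. Each library labelled H295R-PM-Ptc+ was lower than the H295R library of the same number, although the groups overlapped. For TAP1 this gave a log2 fold change of -0.21 (SE 0.120, interval -0.49 to 0.06, edgeR adjusted p = 0.421).

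TAP2, at chr6:32813767-32838822 on the minus strand, varied least, with 50.3, 51.65 and 54.8 CPM under the H295R label and 49.0, 50.3 and 53.35 CPM under the H295R-PM-Ptc+ label. Its order within a group was the same in both, replicate 3 being the highest. The log2 fold change was -0.04 (SE 0.0738, interval -0.21 to 0.13, edgeR adjusted p = 0.857). The count ratio of TAP1 to TAP2 was 0.9035, 0.695 and 0.718 under the H295R label and 0.801, 0.597 and 0.653 under the H295R-PM-Ptc+ label, so that both chains kept no fixed proportion across libraries. Exons of HLA-DOB overlap 599 bases of TAP2 (8.52%), and HLA-DOB held 0 to 1 counts per library.

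TAPBP encodes tapasin, which holds the heavy chain at the transporter until a peptide is bound, and lies at chr6:33299694-33314387 on the minus strand. It had 147.0, 107.0 and 119.7 CPM under the H295R label and 149.3, 132.1 and 133.7 CPM under the H295R-PM-Ptc+ label. Both first libraries were high and close to each other, while replicates 2 and 3 labelled H295R were lower than all others. The log2 fold change was 0.15 (SE 0.118, interval -0.12 to 0.42, edgeR adjusted p = 0.581).

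NLRC5, the transactivator of class I genes, at chr16:56989485-57083531 on the plus strand, had 186, 161 and 172 counts under the H295R label and 233, 207 and 178 under the H295R-PM-Ptc+ label. In CPM these were 7.785, 6.34 and 6.96 against 9.12, 8.33 and 7.69. Replicate 3 labelled H295R-PM-Ptc+ lay just below the highest H295R library, which was the only overlap. The means were 7.03 ± 0.726 and 8.38 ± 0.714 CPM. The log2 fold change of 0.26 was the largest of the 9 genes and had the smallest p (SE 0.127, interval -0.03 to 0.54, edgeR unadjusted p = 0.0764, adjusted p = 0.354).

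Same-numbered libraries of the groups share a code in the labels and deviated together across genes, so the fit was repeated with the replicate number as a block. In that fit B2M and TAPBP were called higher and TAP1 lower under the H295R-PM-Ptc+ label, against a background of 12.1% of all tested genes called higher and 10.4% called lower. B2M rose by 0.16 on the log2 scale (edgeR adjusted p = 0.0394), TAPBP by 0.16 (adjusted p = 0.0367), and TAP1 fell by 0.21 (adjusted p = 0.0120). Over all alternatives the adjusted p ran from 0.0394 to 0.823 for B2M, from 0.0366 to 0.881 for TAPBP and from 0.0120 to 0.787 for TAP1. HLA-B, with a log2 fold change of 0.16 in the blocked fit, just missed the threshold (adjusted p = 0.0551), and NLRC5 had an adjusted p of 0.0965. The other 4 genes had adjusted p from 0.231 to 0.645. In the same-numbered pairs, 5 of the 9 genes were higher in all 3 pairs and 2 were lower in all 3, where 26.9% and 25.7% of all tested genes were.

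The pairs did not contribute alike. The pair difference of B2M was 0.34 on the log2 scale for replicate 1 and 0.07 for each of the other pairs, and that of HLA-B was 0.37 against 0.03 and 0.09. For TAPBP the order was reversed, with 0.02 for replicate 1 against 0.30 and 0.16. TAP1 was alone among the called genes in having pair differences of like size, at -0.21, -0.26 and -0.18. With replicate 1 of both groups left out, 1 of the 9 genes was called, TAPBP, at a log2 fold change of 0.23 (edgeR adjusted p = 0.0366), against 6.67% of all tested genes called higher and 5.34% lower.

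**Figure D2:**
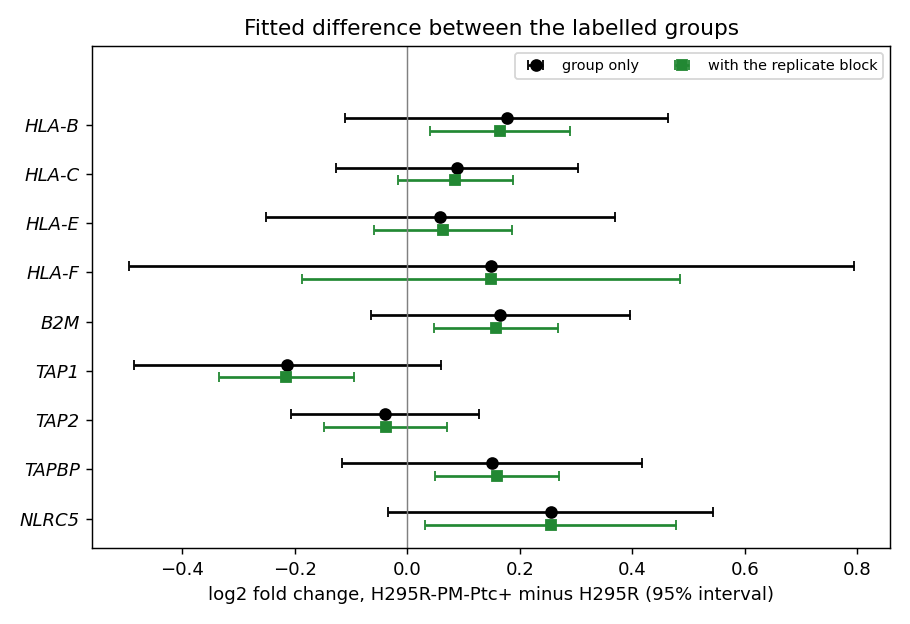
Log2 fold change of each class I gene, libraries labelled H295R-PM-Ptc+ minus those labelled H295R (horizontal axis, bars are 95% intervals), in the fit with group only (black circles) and with the replicate number as a block (green squares). Every interval of the group-only fit spans 0, and the blocked intervals, which are not adjusted for the number of genes tested, leave 0 for HLA-B, B2M, TAP1, TAPBP and NLRC5.

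Most of the 9 genes shared an order by replicate number. Replicate 1 was the highest library of both groups for 8 of the 9 genes, where 27.1% of all tested genes showed that order, and TAP2 was lowest there in both groups, as 26.4% of all tested genes were. Set against the mean of the other libraries of its group, replicate 1 was 1.75-fold higher for HLA-F under the H295R label and 1.60-fold higher under the H295R-PM-Ptc+ label. For HLA-E the folds were 1.33 and 1.24, and for TAP1 1.21 and 1.215. For B2M the fold was 1.04 under the H295R label and 1.25 under the H295R-PM-Ptc+ label, and for HLA-B it was 1.095 and 1.35. For the transactivator NLRC5 the folds were 1.17 and 1.14. The source of the difference between replicate 1 and the other libraries was not tested.

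**Figure D3:**
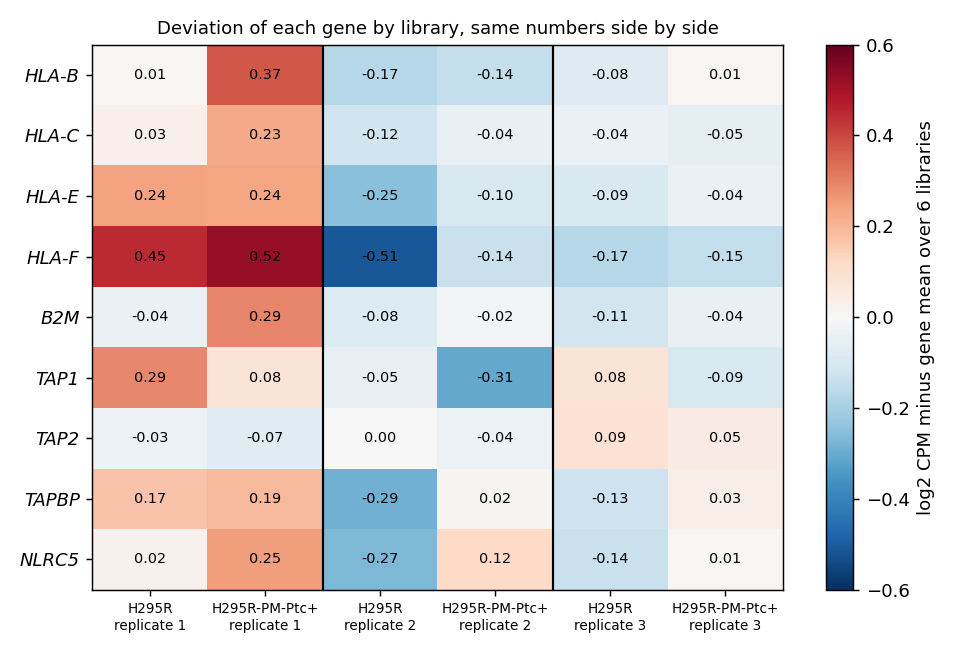
Deviation of the log2 CPM of each class I gene from its mean over the 6 libraries (color and printed value), with libraries of the same replicate number side by side between black lines. The first 2 columns, replicate 1 of both groups, are mostly positive, the columns of the second H295R library mostly negative, and TAP2 shows small values in all 6 libraries.

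The genes differed in how closely they followed each other over the 6 libraries, which share their library and depth and give a description only. The correlation of a gene with the mean profile of the other 8 was 0.946 for HLA-F, 0.935 for HLA-E, 0.930 for HLA-C, 0.893 for HLA-B and 0.859 for TAPBP. It was 0.729 for NLRC5 and 0.722 for B2M, 0.405 for TAP1 and -0.61 for TAP2. TAP1 had the same order of replicates as the mean profile within each group, with replicate 1 highest and replicate 2 lowest, but lay lower under the H295R-PM-Ptc+ label in each pair, and TAP2 did not share that order. The genes outside the set with the profile most like the mean of the set were NECAP2 (Pearson r = 0.998, 6 libraries), ASB13 (0.993), PQLC1 (0.993), ACAA1 (0.992) and GFER (0.992). In all, 452 of 16701 other tested genes (2.71%) had r over 0.9, and the 5 named ones had log2 fold changes between 0.05 and 0.12, with none called.

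Levels were compared between genes as CPM per kb of exon on the primary chromosome sequence. B2M had the highest level, with a median over the 6 libraries of 204.6 CPM per kb (range 194.8 to 258.2), above all heavy chains. HLA-C followed at 44.3 CPM per kb (42.0 to 53.3), and then HLA-B at 27.7 (25.15 to 36.7) and TAPBP at 26.3 (21.2 to 29.5), whose ranges overlapped. HLA-E stood at 11.8 CPM per kb (10.4 to 14.6), apart from its neighbours in the order.

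TAP1 at 8.21 CPM per kb (6.555 to 9.93) and TAP2 at 7.25 (6.97 to 7.80) overlapped, so the transporter chains were not told apart by level. NLRC5 at 0.625 CPM per kb (0.512 to 0.736) and HLA-F at 0.590 (0.453 to 0.946) were lowest and overlapped as well. The gene length given with the counts was not used for this, because it adds the exons of alternative sequences of the MHC. For the genes on chromosome 6 it was 4.95 (TAPBP) to 8.0 (TAP1) times the primary exon length, for B2M 1.31 times, and for NLRC5 it was equal.

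Among the other heavy chain genes, 4 of 8 were tested and none was called in either fit. HLA-G, a non-classical heavy chain, stood at -0.56 on the log2 scale (edgeR adjusted p = 0.276), and the pseudogene HLA-L at 0.03 (adjusted p = 0.970).

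Of the 12 genes for peptide loading and trimming, 1 was called higher and none lower, beside 2.42% and 1.32% of all tested genes. The called gene was ERAP2, an aminopeptidase that trims peptides in the endoplasmic reticulum. ERAP2 had 63.1, 62.2 and 57.8 CPM under the H295R label and 78.9, 86.5 and 79.8 CPM under the H295R-PM-Ptc+ label. The groups did not overlap, and ERAP2 rose by 0.42 on the log2 scale (SE 0.0758, edgeR adjusted p = 0.0193). Leaving out replicate 2 or 3 of either group ended that call, with adjusted p from 0.0641 to 0.120. The median log2 fold change of the 12 genes was 0.07. The blocked fit called 4 higher (ERAP2, its relative ERAP1, the tapasin-related TAPBPL and the chaperone CALR) and 1 lower (BLMH). Of all tested genes, that fit called 12.1% higher and 10.4% lower.

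None of the 6 genes of the immunoproteasome and its activator was called in either fit, and their median log2 fold change was 0.07. PSMB8 and PSMB9, which lie beside the TAP genes and encode interferon-inducible catalytic subunits, had log2 fold changes of -0.02 and 0.03. The smallest p were those of POMP, the assembly factor (log2 fold change 0.14, edgeR adjusted p = 0.460), and PSME2, an activator subunit (0.12, adjusted p = 0.667). PSMB8, PSMB9, PSME1 and PSME2 were, like most members, highest in replicate 1 of both groups. The 3 constitutive catalytic subunits were not called, and PSMB7, at -0.14, was called lower in the blocked fit (edgeR adjusted p = 0.0266).

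Of the 13 tested regulators of class I promoters, IRF1 alone was called, beside 3.73% of all tested genes. Their median log2 fold change was 0.005. IRF1, a factor that can bind interferon-stimulated response elements, had 12.5, 10.3 and 11.0 CPM under the H295R label. Under the H295R-PM-Ptc+ label it had 16.7, 15.2 and 15.2 CPM, with no overlap. It rose by 0.47 on the log2 scale (edgeR adjusted p = 0.0470), a call that ended without any single library but the first labelled H295R (adjusted p 0.126 to 0.178 for the other libraries). RFX5, a subunit of the X box complex, had a log2 fold change of 0.006. CIITA, the class II counterpart of NLRC5, was not tested, with at most 6 counts in a library.

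Of 8 tested negative regulators, 1 was called, beside 3.73% of all tested genes. The called one was the ubiquitin ligase gene MARCH4, which fell by 1.00 on the log2 scale (edgeR adjusted p = 0.0263) from 2.68, 2.56 and 2.265 CPM to 1.17, 1.49 and 1.08 CPM. Its call also ended without any single library but the first labelled H295R (adjusted p 0.0520 to 0.117). EZH2, a Polycomb enzyme that can silence class I genes, had a log2 fold change of -0.06. The blocked fit called MARCH4 lower and the ubiquitin ligase gene WWP2 higher (0.19, edgeR adjusted p = 0.0144). Among 10 tested class I-like genes and ligands of the natural killer receptor NKG2D none was called in the group-only fit, and their median log2 fold change was 0.20. ULBP3, such a ligand, stood at -0.46 on the log2 scale (edgeR adjusted p = 0.130, 0.00437 with the block), and PROCR, a class I-like receptor for protein C, at 0.46 (0.167, 0.00881 with the block). Without the first library labelled H295R, PROCR had an adjusted p of 0.0318. The blocked fit called 2 of these genes higher, PROCR and the ligand ULBP2 (0.62, edgeR adjusted p = 0.0117), and 2 lower, ULBP3 and the ligand MICA (-0.24, adjusted p = 0.00706). Of all tested genes, the blocked fit called 12.1% higher and 10.4% lower.

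MHC class II genes were close to absent, with 3 of 12 tested and a summed level of 2.99 to 4.48 CPM under the H295R label and 2.89 to 6.10 CPM under the H295R-PM-Ptc+ label. CD74, the class II invariant chain, had at most 1 count in a library. The log2 difference between the labels was 0.73 for HLA-DPA1 (edgeR adjusted p = 0.578) and 0.14 for HLA-DMB (adjusted p = 0.856).

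Genes of interferon receptors and signaling had 1 call of 16 tested, again IRF1, beside 3.73% of all tested genes. Their median log2 fold change was 0.04. In the blocked fit 3 were called higher, IRF1, the kinase gene JAK1 (0.15, edgeR adjusted p = 0.0390) and IRF9 (0.29, adjusted p = 0.0434), and 1 lower, the interferon signaling inhibitor USP18 (-0.37, adjusted p = 0.00743). These counts stand beside 12.1% and 10.4% of all tested genes. Of 28 tested interferon-stimulated genes, 4 were called higher and none lower, beside 2.42% and 1.32% of all tested genes. The blocked fit called 13 higher and none lower, beside 12.1% and 10.4% of all tested genes. Their median log2 fold change was 0.26, above the 0.15 of the class I genes. GBP2, a guanylate-binding protein, had 2.595, 3.03 and 2.10 CPM under the H295R label and 10.9, 8.73 and 6.39 CPM under the H295R-PM-Ptc+ label, a log2 fold change of 1.75 (edgeR adjusted p = 0.00341).

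The related GBP1 rose by 0.56 (adjusted p = 0.0276) and the antiviral gene IFIT3 by 0.56 (adjusted p = 0.0490), calls that did not hold in every subset of libraries. GBP1 lost its call without replicate 3 labelled H295R or replicate 2 or 3 labelled H295R-PM-Ptc+ (adjusted p up to 0.124), and IFIT3 without any single library but replicate 1 labelled H295R (up to 0.157). XAF1, an interferon-inducible regulator of cell death, had 1, 0 and 1 counts under the H295R label and 32, 23 and 18 under the H295R-PM-Ptc+ label (adjusted p = 0.00171). No class I gene reached changes of this size, and whether the interferon-stimulated genes and the class I genes differed in their change was not tested.

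**Figure D4:**
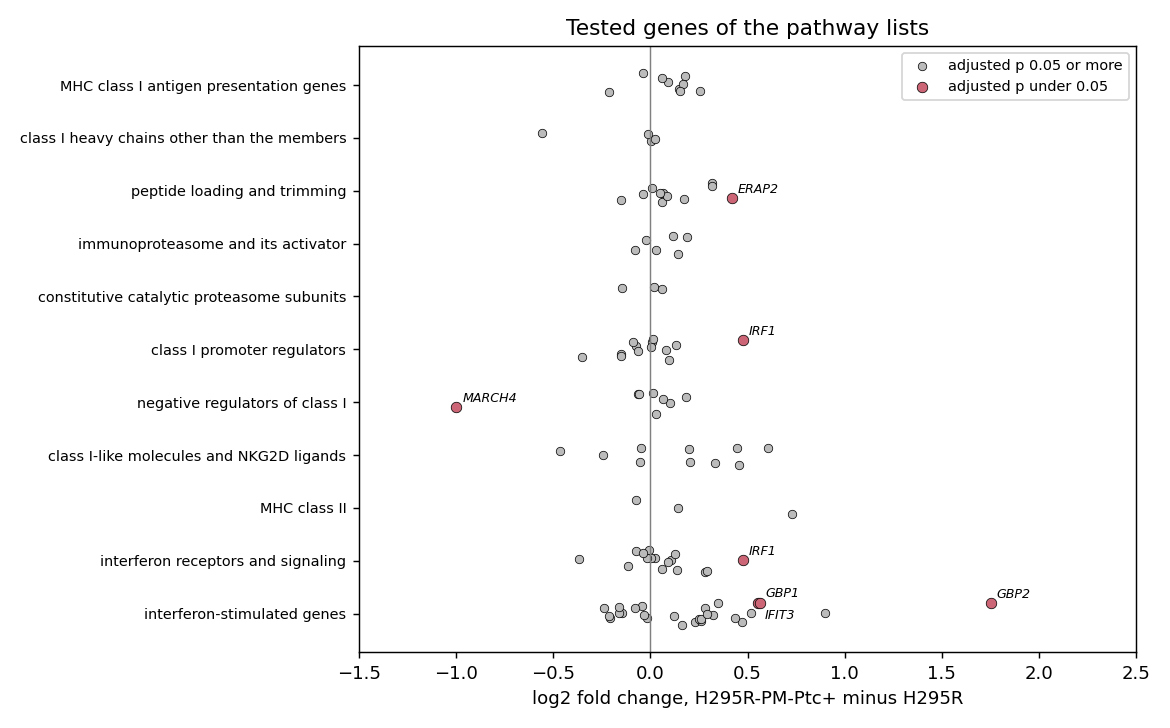
Log2 fold change, libraries labelled H295R-PM-Ptc+ minus those labelled H295R (horizontal axis), of each tested gene in the class I set and in the related lists (rows), with called genes in red and named. The 9 class I genes lie between -0.21 and 0.26 with no red point, GBP2 at 1.75 and MARCH4 mark the ends, and XAF1 is left out because its H295R libraries hold at most 1 count.

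On chromosome 6, 106 other tested genes lay between the outermost class I members (chr6:29722775-33314387). Of these neighbours, 2 were called higher and 2 lower, beside 2.42% and 1.32% of all tested genes. The median log2 fold change of the 106 was 0.03, with 60 positive and 46 negative. C2, a complement gene, was called higher with a log2 fold change of 2.00 (edgeR adjusted p = 0.00924, and 0.0570 without replicate 3 labelled H295R). Its levels were near the floor, at 0.293, 0.472 and 0.283 CPM under the H295R label and 1.80, 1.25 and 1.21 CPM under the H295R-PM-Ptc+ label. CYP21A2, the steroid 21-hydroxylase gene, was called higher at 0.88 (adjusted p = 0.00670), and its reads may be split with a near-identical pseudogene beside it. NOTCH4 was called lower at -0.78 (adjusted p = 0.0453) and FKBPL at -0.52 (adjusted p = 0.0408, and 0.126 to 0.154 without replicate 2 or 3 of either group). Replicate 1 was the highest library of both groups in 49 of the 106 neighbours (46.2%), between the 27.1% of all tested genes and the 8 of 9 class I members.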

How the data were processed

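Paired-end RNA-seq of 6 libraries was used, 3 labelled H295R and 3 labelled H295R-PM-Ptc+. The authors aligned reads to hg38 with STAR (2.4.0a per the processing notes), summed them by gene symbol with featureCounts against Ensembl gene models, with multiply mapped reads taken at their primary position, and deposited raw counts per gene without normalization. The study's methods name a strand option, and whether it matched the strand of the library kit was not tested. A row with no gene name held 0 counts (0%) in every library and was left out, and 0 columns of per-sample values were left unused.

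Counts were filtered with filterByExpr, scaled by TMM and tested by edgeR (4.0.16, under R 4.3.3) (glmQLFit and glmQLFTest, two-sided, group only), with Benjamini-Hochberg adjustment over the 16710 genes tested and a threshold of 0.05. CPM use the TMM-scaled totals, intervals are 95%, and log2 CPM carry a prior count of 2. Ratios of counts inside a library were compared by exact permutation tests over the 6 libraries. The steps were tested on simulated data.

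Same-numbered libraries share a code in the labels, and the correlation across genes of how far they lay from their group's mean was 0.497, 0.307 and 0.228, against -0.35 to 0.15 for other pairs, so the replicate number was also fitted as a block. The p-values measure the spread between these libraries, which may be technical, since nothing says that they came from separate cultures. Alternatives were DESeq2 1.42.0, limma-voom (limma 3.58.1), RLE size factors, no filter, at least 10 counts in every library, the block, each library left out in turn, and, chosen after seeing the data, both replicates numbered 1 left out.

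The 9 members and the lists were chosen with earlier results of these data known. Named genes are the members, PTCH1, the called genes of each list (otherwise its 2 smallest p, or fewer), the 3 smallest p of the chromosome 6 interval and the 5 genes of most similar profile, and a few others were named after their values were seen (HLA-F-AS1, NOTCH4, ERAP1, TAPBPL, CALR, BLMH, WWP2, MICA, ULBP2, JAK1, IRF9, USP18, PSMB8, PSMB9, PSME1, RFX5, CIITA, EZH2, CD74, CD79A, THY1, STAR, CYP11A1, PTPRC, HLA-DOB). Promoters are those of RefSeq, and only their 250 upstream bases were searched for motifs.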

Additional observations from a re-analysis of the deposited data

How the results depend on the processing

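Of the 9 class I genes, 0 were called under DESeq2, limma-voom, RLE size factors, both filters and every omission of 1 library. With the replicate block 2 were called higher and 1 lower, and with both replicates numbered 1 left out, an alternative chosen after seeing the data, 1 was called higher. The count over all genes, 624, was 1111 with no filter, 3758 with the replicate block and 2013 with both replicates numbered 1 left out, and ran from 219 (without H295R replicate 3) to 810 with single libraries left out. It was 278 without the second library labelled H295R, and 247 and 257 without H295R-PM-Ptc+ replicate 2 or 3. With single libraries left out, the log2 fold change ran from -0.015 to 0.13 for HLA-C, from -0.058 to 0.21 for HLA-E, from -0.13 to 0.46 for HLA-F, from 0.01 to 0.28 for HLA-B, from 0.04 to 0.22 for B2M, from -0.32 to -0.12 for TAP1, from -0.08 to -0.01 for TAP2, from 0.05 to 0.29 for TAPBP and from 0.18 to 0.33 for NLRC5. The sign changed for HLA-C without the first library labelled H295R-PM-Ptc+, and for HLA-E and HLA-F without that library or the second labelled H295R. Signs also changed for HLA-L (-0.15 to 0.17), HLA-DPA1 (-0.18 to 1.10), HLA-DMB (-0.061 to 0.37), NECAP2 (-0.024 to 0.14), ACAA1 (-0.018 to 0.087) and GFER (-0.010 to 0.15), and HLA-DMB was at -0.078 with both replicates numbered 1 left out. The causes were not tested. IFIT3 lost its call with limma-voom (adjusted p = 0.0549), and IRF1 and IFIT3 lost theirs under a minimum of 10 counts a library (0.0552 and 0.0572). Beside B2M, TAP1 and TAPBP, the replicate block added calls of PSMB7, ULBP3, PROCR, ERAP1, TAPBPL, CALR, BLMH, MICA, ULBP2, WWP2, JAK1, IRF9, USP18, STAR and CYP11A1, and ended no call of a gene named here. Leaving out both replicates numbered 1 also gave calls of PSMB7 (-0.18, edgeR adjusted p = 0.0457) and PROCR (0.56, adjusted p = 0.0216). HLA-F, with 50 to 105 counts and 3 libraries a group, had the widest interval of the 9 class I genes. The group-only intervals of all 9 spanned both directions.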
